A study of Homo sapiens with 24 samples.

Results

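Transfection of MCF10A cells with an oligonucleotide against miR-20a was compared with transfection with one against miR-671-5p, before EGF and 30 min after it. MCF10A is an established human breast epithelial cell line that does not form tumours. The members are 8 of the 24 arrays of the series, grouped by their labels and chosen with earlier results of these data known. They are 4 arrays of cells given the miR-20a oligonucleotide (si-miR-20a) and 4 of cells given the miR-671-5p oligonucleotide (si-miR-671). Each set of 4 holds 2 replicates at 0 min and 2 replicates at 30 min of EGF. The other 16 arrays are the same transfections at 60 and 120 min (8 arrays) and a non-targeting oligonucleotide (si-control) at all 4 times (8 arrays). All cells, control cells included, were transfected with Oligofectamine in the same way, and the medium in which the line was grown held EGF, insulin, hydrocortisone, cholera toxin and horse serum. The labels call the replicates biological, but no source used here says whether they came from separate transfections, or gives the dose of oligonucleotide or the hours between transfection and EGF. The p-values therefore measure the spread between these arrays, which may be partly technical. Mature microRNAs were not measured, so neither knockdown could be checked directly. For ACAT1, YIPF4 and PSMD6 the si-miR-671 arrays lay beside si-control at 0 and 30 min and beside si-miR-20a at 60 and 120 min, as shown in the last comparison.

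MicroRNAs guide Argonaute proteins to messenger RNAs that carry a match to the seed, bases 2 to 8 of the microRNA, and the bound messenger RNAs are repressed and often destabilised. Blocking a microRNA is therefore known to raise the messenger RNAs it represses. miR-20a belongs to the miR-17 family, which is best known for repressing brakes on the cell cycle and TGF-beta signalling, while miR-671-5p is known in brain for directing the cleavage of a circular RNA. EGF switches on immediate early genes in epithelial cells within minutes, followed by genes that restrain the signal.

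The mature sequences below, from RefSeq on build GRCh38.p14, are shown because the comparison sets one seed against another, and the capitals mark bases 2 to 8. The first line is the microRNA named by the si-miR-20a label, encoded at chr13:91351072-91351094 on the plus strand in the MIR17HG transcript. The next 6 lines are family members that share its seed, and the last line is the microRNA named by the si-miR-671 label, encoded at chr7:151238449-151238471 on the plus strand.
hsa-miR-20a-5p: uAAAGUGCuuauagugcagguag
hsa-miR-17-5p: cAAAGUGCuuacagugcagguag
hsa-miR-20b-5p: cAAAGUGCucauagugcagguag
hsa-miR-93-5p: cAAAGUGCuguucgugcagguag
hsa-miR-106a-5p: aAAAGUGCuuacagugcagguag
hsa-miR-106b-5p: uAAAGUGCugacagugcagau
hsa-miR-519d-3p: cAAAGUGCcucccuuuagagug
hsa-miR-671-5p: aGGAAGCCcuggaggggcuggag
The seed of miR-20a-5p was shared by 8 of the 2370 mature microRNAs in the table, 7 of which are printed, and the seed of miR-671-5p was held by 1, itself. The seeds of miR-20a-5p and miR-671-5p had the same base at 2 of their 7 positions. miR-20a-5p differs from miR-17-5p, miR-20b-5p and miR-106a-5p outside the seed, and how far the oligonucleotide reached those relatives was not tested.

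Values are the authors' deposited log2 levels, 1 per probe set, from Affymetrix Human Gene 1.0 ST arrays, so a difference of 1 is a doubling of signal. The arrays had almost the same distribution, with medians between 6.56 and 6.57. Early replicates correlated at 0.979 to 0.990 across probe sets, and the SD of their difference was 0.260 to 0.377. Basal keratins were high in both transfections: KRT5 averaged 12.69 in si-miR-20a cells and 12.61 in si-miR-671 cells, and KRT14 averaged 12.04 and 11.88. The leukocyte gene PTPRC averaged 4.35 in si-miR-20a cells and 4.04 in si-miR-671 cells. None of the measured markers of basal (14), luminal (22), mesenchymal (20) or blood and endothelial (12) cells was called, against 1.12% of all probe sets. Of the 14 basal markers, 7 had all si-miR-20a arrays above all si-miR-671 arrays (6.84% of all probe sets) and 1 had them below, and limma over all 24 arrays called 4 higher (2.74% of all probe sets) and 0 lower. Their part in the other results was not tested. The mean level of the basal list ran from 10.28 to 10.34 over si-miR-20a arrays and from 10.22 to 10.31 over si-miR-671 arrays, and that of the blood and endothelial list ran from 6.48 to 6.75 over si-miR-20a arrays and from 6.55 to 6.68 over si-miR-671 arrays.

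The first comparison asked which transcripts differed between the transfections over the mean of 0 and 30 min. In si-miR-20a cells, published targets of the miR-17 family such as CDKN1A, TGFBR2 and ZNFX1 were higher than in si-miR-671 cells. Secreted defence proteins (LCN2, CHI3L1, S100A8), the neutrophil chemokines CXCL1 and CXCL2, and mitotic genes (CENPE, CCNA2, CDK1) were lower. Most differences were modest, with a median size of 0.48 on the log2 scale among called probe sets. limma with time as a block called 218 of 19460 probe sets (1.12%) at an adjusted p under 0.05, and these belonged to 204 genes. Of them, 75 lay higher in si-miR-20a cells (0.385%) and 143 lay lower (0.735%). A difference of at least 1.5-fold was reached by 13 of the higher probe sets (0.0668%) and 43 of the lower ones (0.221%). The 4 si-miR-20a arrays lay apart from the 4 si-miR-671 arrays for 215 of the 218, against 1332 (6.84%) higher and 1667 (8.57%) lower among all probe sets.

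The number of calls rested on a narrow margin. Of the 218, 1 had an adjusted p under 0.01 and the other 217 lay between 0.03 and 0.05. Leaving out any one of 7 of the 8 arrays left 0 calls, while leaving out si-miR-20a replicate 1 at 0 min gave 1156, and limma over all 24 arrays called 1461 (7.51%), with 533 higher (2.74%) and 928 lower (4.77%). That fit held 209 of the 218, which is 95.9% of the smaller list and 14.3% of the larger. It takes each difference from the same 8 arrays, and the other arrays enter only its estimate of spread. Calls over all 24 arrays, here and below, are therefore not separate support for a difference. Among the called genes named by rule, 5 had differences over 1.5 times larger at one time than at the other. The difference of UGT2B10 was 0.94 at 0 min and 0.53 at 30 min, that of SNORD50B -0.72 and -1.12, that of CHI3L1 -0.81 and -1.24, that of IL24 -0.38 and -0.58, and that of GMNN -0.72 and -1.08.

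The arrays also differed along an axis that separates replicates of the same group. It was taken from the 16 other arrays, where it held 37.1% of the variance between replicates. Its scores were 12.4, -22.1, -14.2 and -7.65 in the si-miR-20a arrays (0 min replicates 1 and 2, then 30 min replicates 1 and 2). They were 9.66, -3.89, 25.5 and 0.286 in the si-miR-671 arrays in that order. The groups overlapped on it, but 3 of the 4 si-miR-20a scores lay below all of si-miR-671. The difference between the transfections correlated with the loading at -0.50 across probe sets (a description, since probe sets are not replicates). The scores are computed from that loading, so the correlation restates the gap in scores. With the score as a covariate limma called 0 of 19460 probe sets, with 2976 at an unadjusted p under 0.05 (4127 without the score). The 44 called genes named by rule were among the 2976. They were picked on these same arrays, so this is no evidence of stability.

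Published targets of the miR-17 family were taken from earlier literature, and 41 of the 45 on that list were measured. Like every list here, it was chosen with earlier results of these data known, so its shares are a description. In si-miR-20a cells 9 were higher than in si-miR-671 cells and 0 were lower at the threshold, against 0.385% and 0.735% of all probe sets. The 4 si-miR-20a arrays lay above the 4 si-miR-671 arrays for 17 of the 41 (6.84% of all probe sets) and below them for 5 (8.57%). The fit over all 24 arrays called 13 higher (2.74% of all probe sets) and 3 lower (4.77%). The median difference of the 41 was 0.10, with 25 above 0 and 16 below, beside a median of 0.0049 over all probe sets.

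ZNFX1, a helicase with NFX1-type zinc fingers that senses double-stranded RNA, had the smallest p of all. Its log2 levels were 9.14, 9.09, 9.12 and 9.13 in the si-miR-20a arrays, given here and below as 0 min replicates 1 and 2 and then 30 min replicates 1 and 2. They were 8.25, 8.27, 8.28 and 8.28 in the si-miR-671 arrays and 8.44, 8.31, 8.39 and 8.51 in the si-control arrays. The sets did not overlap, and si-control lay between them, nearer to si-miR-671. The difference of si-miR-20a minus si-miR-671 was 0.85 ± 0.05 (SE, n = 4 arrays each), a 1.80-fold higher signal (limma, adjusted p = 0.0098).

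CDKN1A encodes p21, an inhibitor of cyclin-dependent kinases. Its levels were 10.32, 10.40, 10.52 and 10.50 in si-miR-20a cells, 9.66, 9.70, 9.91 and 10.05 in si-miR-671 cells, and 9.88, 9.70, 10.02 and 10.12 in si-control cells. All 4 si-miR-20a arrays were above every si-miR-671 and si-control array, and both times showed it. The difference was 0.61 ± 0.07 (limma, adjusted p = 0.038).

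TGFBR2 is the receptor chain that binds TGF-beta. It was at 11.10, 11.16, 11.16 and 11.09 in si-miR-20a cells, at 10.57, 10.59, 10.58 and 10.56 in si-miR-671 cells, and at 10.83, 10.77, 10.79 and 10.80 in si-control cells. The replicates were tight, and si-control fell between the transfections. The difference was 0.56 ± 0.05 (limma, adjusted p = 0.038).

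LIMK1, the kinase that inactivates the actin-severing protein cofilin, was at 8.44, 8.47, 8.49 and 8.18 in si-miR-20a cells. In si-miR-671 cells it was at 7.71, 7.77, 7.65 and 7.76, and in si-control cells at 8.01, 7.81, 7.74 and 7.82. The sets of si-miR-20a and si-miR-671 arrays lay apart, with a difference of 0.67 ± 0.08 (limma, adjusted p = 0.038). TXNIP, an inhibitor of thioredoxin, was at 11.40, 11.48, 11.42 and 11.41 in si-miR-20a cells, 10.91, 11.04, 10.87 and 10.91 in si-miR-671 cells, and 11.02, 11.09, 10.94 and 11.03 in si-control cells. It differed by 0.50 ± 0.06 (limma, adjusted p = 0.038).

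The D-type cyclins CCND1 and CCND2, partners of CDK4 and CDK6 in G1, were both higher after si-miR-20a. CCND2 was at 9.89, 9.91, 9.91 and 9.80 in si-miR-20a cells, 9.41, 9.45, 9.44 and 9.53 in si-miR-671 cells and 9.60, 9.39, 9.51 and 9.43 in si-control cells, a difference of 0.42 ± 0.06 (limma, adjusted p = 0.041). CCND2 was also on the short list of published miR-671-5p targets. It was the only one of the 6 measured there to be called (0.385% of all probe sets were called higher). CCND1 averaged 9.10 in si-miR-20a cells, 8.63 in si-miR-671 cells and 8.49 in si-control cells (difference 0.47 ± 0.08, limma, adjusted p = 0.048). CCND1 and MICA fall outside the rule for naming genes and were added after their values were seen. MICA, a stress-induced ligand of a natural killer cell receptor, differed by 0.42 ± 0.06 (limma, adjusted p = 0.038).

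**Figure D1:**
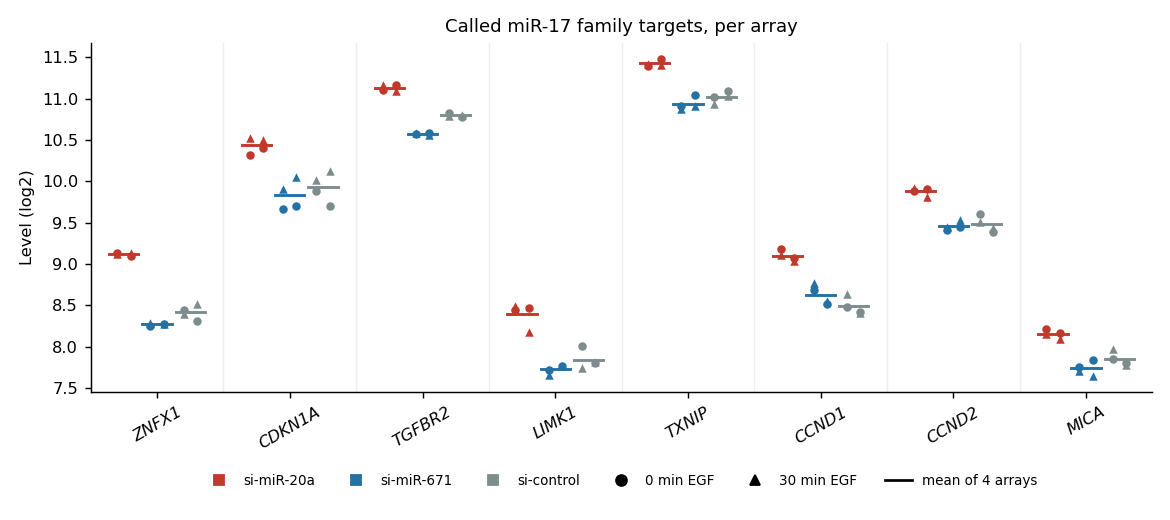
Deposited log2 level of 8 of the 9 called miR-17 family targets in each array at 0 min (circles) and 30 min (triangles) of EGF, with the mean of the 4 arrays as a line, for si-miR-20a, si-miR-671 and si-control. The 4 si-miR-20a arrays lie above all 4 si-miR-671 arrays for each of the 8 genes.

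Other published targets did not pass. NAGK, a sugar kinase, differed by 0.43 ± 0.07 (limma, adjusted p = 0.051), PTPN4, a tyrosine phosphatase, by 0.51 ± 0.09 (limma, adjusted p = 0.052), and VEGFA, an angiogenic growth factor, by -0.38 ± 0.07 (limma, adjusted p = 0.052). All 3 were called in the fit over 24 arrays. E2F1, a transcription factor that is among the family's best known targets, averaged 6.80 in si-miR-20a cells and 6.91 in si-miR-671 cells, and the pro-apoptotic BCL2L11 averaged 7.84 and 8.01. Both sets overlapped.

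The host transcripts of the microRNAs were examined as well. MIR17HG, the primary transcript that carries miR-20a, was at 6.85, 6.44, 6.56 and 6.79 in si-miR-20a cells, 7.20, 7.09, 7.31 and 7.17 in si-miR-671 cells and 6.83, 6.59, 7.29 and 6.87 in si-control cells. The 4 si-miR-20a arrays lay below the 4 si-miR-671 arrays, with a difference of -0.54 ± 0.11 that did not pass in the 8 arrays (limma, adjusted p = 0.065) and passed over all 24 (limma, adjusted p = 0.016). CHPF2, the chondroitin synthesis gene next to miR-671, differed by 0.15 ± 0.06 (limma, adjusted p = 0.19).

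Of 21 measured host and primary microRNA transcripts, 1 was higher and 0 were lower at the threshold (0.385% and 0.735% of all probe sets). It was the MIR21 probe set, at 9.41, 9.51, 10.16 and 10.07 in si-miR-20a cells, 8.83, 9.04, 9.74 and 9.76 in si-miR-671 cells, and 9.26, 9.11, 9.86 and 9.86 in si-control cells. Each transfection was higher at 30 min than at 0 min, so the sets overlapped over both times but not within a time (difference 0.45 ± 0.08, limma, adjusted p = 0.048). None of 24 genes of microRNA processing and silencing was called. The si-miR-20a arrays lay above the si-miR-671 arrays for 4 of them (6.84% of all probe sets) and below for 5 (8.57%). The fit over all 24 arrays called 0 higher and 3 lower (2.74% and 4.77% of all probe sets). AGO2, the slicing Argonaute, averaged 8.43 in si-miR-20a cells and 8.41 in si-miR-671 cells.

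The lower genes included members of a list of defence, acute phase and complement genes, many of whose products epithelial cells release under inflammatory signals. Of 21 measured members, 0 were higher and 5 were lower in si-miR-20a cells, against 0.735% of all probe sets lower. This list and the others were chosen with earlier results of these data known, so their shares are a description. The si-miR-20a arrays lay entirely below the si-miR-671 arrays for 11 of the 21 (8.57% of all probe sets), 20 of the 21 differences were below 0, and the median was -0.31. The fit over all 24 arrays called 10 lower (4.77% of all probe sets) and 0 higher. For each of the 5 called members the si-control mean lay above both transfections.

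LCN2 encodes lipocalin-2, which withholds iron from bacteria by binding their siderophores. Its levels were 6.17, 5.77, 5.76 and 5.55 in si-miR-20a cells, 6.92, 6.79, 6.83 and 6.84 in si-miR-671 cells, and 7.55, 7.29, 7.45 and 7.31 in si-control cells. The 3 transfections stood in separate ranges, with si-miR-20a lowest. The difference of si-miR-20a minus si-miR-671 was -1.03 ± 0.11, so that the signal in si-miR-671 cells was 2.04 times that in si-miR-20a cells (limma, adjusted p = 0.038).

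CHI3L1, a secreted chitinase-like glycoprotein, was at 6.32, 5.99, 5.84 and 5.94 in si-miR-20a cells, 6.91, 7.02, 7.24 and 7.02 in si-miR-671 cells and 8.06, 7.93, 8.04 and 7.70 in si-control cells. It differed by -1.03 ± 0.12 (limma, adjusted p = 0.038), and again the 3 ranges were separate. S100A8, a subunit of the antimicrobial complex calprotectin, was at 10.78, 10.33, 10.42 and 10.47 in si-miR-20a cells, 11.34, 11.34, 11.32 and 11.20 in si-miR-671 cells and 11.95, 12.01, 11.98 and 11.88 in si-control cells. It differed by -0.80 ± 0.10 (limma, adjusted p = 0.038). Its partner S100A9 averaged 8.57 in si-miR-20a cells, 9.22 in si-miR-671 cells and 10.12 in si-control cells, a difference of -0.65 ± 0.13 that did not pass (limma, adjusted p = 0.063).

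VNN2, of the vanin family of membrane-bound pantetheinases, was at 3.70, 3.78, 3.17 and 3.71 in si-miR-20a cells, 4.76, 4.41, 4.78 and 4.41 in si-miR-671 cells and 5.86, 5.65, 5.84 and 5.66 in si-control cells (difference -1.0 ± 0.16, limma, adjusted p = 0.045). The levels in both transfections were dim, below the lower quartile of every array. CFB, factor B of the alternative complement pathway, was at 8.80, 8.68, 8.48 and 8.55 in si-miR-20a cells, 9.24, 9.18, 9.25 and 9.12 in si-miR-671 cells and 10.19, 10.09, 10.06 and 10.03 in si-control cells (difference -0.57 ± 0.07, limma, adjusted p = 0.038). Its other 2 probe sets differed by -0.57 and -0.59. The probe set at -0.57 matched the named probe set in difference and SE to every digit kept, so it may not be a separate measurement. SAA1 and C3, further acute phase genes, differed by -0.12 ± 0.09 and -0.15 ± 0.07 and were not called (limma, adjusted p = 0.45 and 0.26).

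Cytokines and members of the NF-kappaB feedback loop, the pathway that drives many of these genes, gave 0 higher and 3 lower of 24 measured, against 0.735% of all probe sets lower. The median was -0.21, and it was -0.14 with the axis score as a covariate. CXCL1, a chemokine that attracts neutrophils, was at 10.01, 9.99, 9.99 and 10.11 in si-miR-20a cells, 10.43, 10.50, 10.43 and 10.44 in si-miR-671 cells and 11.21, 11.13, 11.14 and 11.17 in si-control cells. The transfections stood in 3 narrow, separate ranges, and si-miR-20a differed from si-miR-671 by -0.43 ± 0.06 (limma, adjusted p = 0.038). The related CXCL2 was at 8.43, 8.31, 8.87 and 9.05 in si-miR-20a cells, 8.70, 8.74, 9.48 and 9.41 in si-miR-671 cells and 9.27, 9.24, 9.78 and 9.77 in si-control cells.

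CXCL2 differed by -0.42 ± 0.07 in the 8 arrays (limma, adjusted p = 0.049) and did not pass over all 24 (limma, adjusted p = 0.11). IL24, a cytokine of the IL-10 family, was at 4.96, 5.06, 5.80 and 5.81 in si-miR-20a cells, 5.26, 5.51, 6.40 and 6.38 in si-miR-671 cells and 5.33, 5.58, 6.05 and 6.28 in si-control cells (difference -0.48 ± 0.08, limma, adjusted p = 0.048). For CXCL2 and IL24 the sets lay apart within each time but overlapped across times, since both transfections were higher at 30 min. ICAM1, an adhesion molecule for leukocytes, differed by -0.58 ± 0.10 and missed the threshold (limma, adjusted p = 0.051), and the NF-kappaB inhibitor NFKBIA differed by -0.17 ± 0.09 (limma, adjusted p = 0.33). NFKB2 and RELB, subunits of the non-canonical pathway, differed by 0.31 and 0.32 and were called over 24 arrays and not over 8.

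The promoter of CXCL1 is printed because CXCL1 and CXCL2 moved together and both windows hold a match to an NF-kappaB site, searched as GGAATTTCC and, on the other strand, GGAAATTCC. The window runs from 250 bases before to 50 after the start of the gene (RefSeq, GRCh38.p14, chr4:73869143-73869442, plus strand), and the match, in capitals, starts at -78 from the start site.
CXCL1 promoter: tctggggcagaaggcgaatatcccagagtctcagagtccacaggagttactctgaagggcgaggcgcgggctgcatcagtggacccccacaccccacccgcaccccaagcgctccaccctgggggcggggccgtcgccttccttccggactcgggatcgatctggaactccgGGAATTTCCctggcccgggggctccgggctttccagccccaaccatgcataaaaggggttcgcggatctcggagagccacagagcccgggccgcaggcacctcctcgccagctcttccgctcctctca
In CXCL2 the match starts at -77. The site was present in 9 of the 20 cytokine and NF-kappaB promoters in the table (45%), in 0 of 12 acute phase promoters and in 63 of 14239 promoters of all measured genes (0.442%). These are matches of those exact letters, with no variants searched and no binding measured.

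Mitotic genes, most of which peak in G2 and mitosis, gave 0 higher and 5 lower of 29 measured, against 0.735% of all probe sets lower. In 28 of the 29 the difference was below 0, the si-miR-20a arrays lay entirely below the si-miR-671 arrays in 17 (8.57% of all probe sets), and the median was -0.27. The fit over all 24 arrays called 14 lower (4.77% of all probe sets) and 0 higher. The mean level of the list ran from 8.09 to 8.36 over the si-miR-20a arrays and from 8.47 to 8.58 over the si-miR-671 arrays.

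CENPE, the kinesin that aligns chromosomes at the kinetochore, was at 6.23, 6.15, 5.62 and 5.85 in si-miR-20a cells, 7.01, 6.96, 6.64 and 6.77 in si-miR-671 cells and 6.45, 6.42, 6.42 and 6.30 in si-control cells. It differed by -0.88 ± 0.08 (limma, adjusted p = 0.035). CCNA2, the cyclin of S and G2 phase, was at 8.31, 8.16, 8.15 and 8.15 in si-miR-20a cells, 8.91, 8.86, 8.82 and 8.77 in si-miR-671 cells and 8.54, 8.55, 8.58 and 8.46 in si-control cells. It differed by -0.65 ± 0.06 (limma, adjusted p = 0.035). In both genes si-control lay between the transfections, below si-miR-671 and above si-miR-20a.

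TOP2A, the topoisomerase that untangles sister chromatids, was at 9.38, 9.38, 9.31 and 9.34 in si-miR-20a cells, 9.78, 9.84, 9.86 and 9.67 in si-miR-671 cells and 9.61, 9.75, 9.63 and 9.54 in si-control cells (difference -0.44 ± 0.06, limma, adjusted p = 0.041). DLGAP5, a spindle protein, was at 8.35, 8.34, 8.20 and 8.34 in si-miR-20a cells, 8.69, 8.64, 8.70 and 8.70 in si-miR-671 cells and 8.42, 8.51, 8.43 and 8.51 in si-control cells (difference -0.37 ± 0.06, limma, adjusted p = 0.048). CDK1, the kinase that drives entry into mitosis, lies outside the rule for naming and completes the 5: it averaged 7.39 in si-miR-20a cells, 7.94 in si-miR-671 cells and 7.48 in si-control cells (difference -0.55 ± 0.09, limma, adjusted p = 0.048). The si-control mean of CDK1 was nearer to si-miR-20a than to si-miR-671. TTK, a spindle checkpoint kinase, differed by -0.68 ± 0.12 and AURKA, a spindle pole kinase, by -0.34 ± 0.07, and neither passed (limma, adjusted p = 0.054 and 0.067).

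The replication list gave 0 higher and 1 lower of 39 measured, against 0.735% of all probe sets lower. The si-miR-20a arrays lay entirely below the si-miR-671 arrays in 12 of the 39 (8.57% of all probe sets), and the fit over all 24 arrays called 7 lower (4.77%) and 0 higher. The called gene was GMNN, geminin, which blocks re-licensing of origins by binding CDT1. Its levels were 7.32, 6.73, 6.76 and 6.75 in si-miR-20a cells, 7.68, 7.81, 8.0 and 7.67 in si-miR-671 cells and 7.58, 7.40, 7.76 and 7.15 in si-control cells (difference -0.90 ± 0.15, limma, adjusted p = 0.049). GMNN is also known to fall in G1 through degradation of the protein, which arrays do not see. MCM2, a subunit of the replicative helicase, differed by -0.10 ± 0.11 (limma, adjusted p = 0.65), and the median of the list was -0.15, or -0.087 with the axis score as a covariate.

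**Figure D2:**
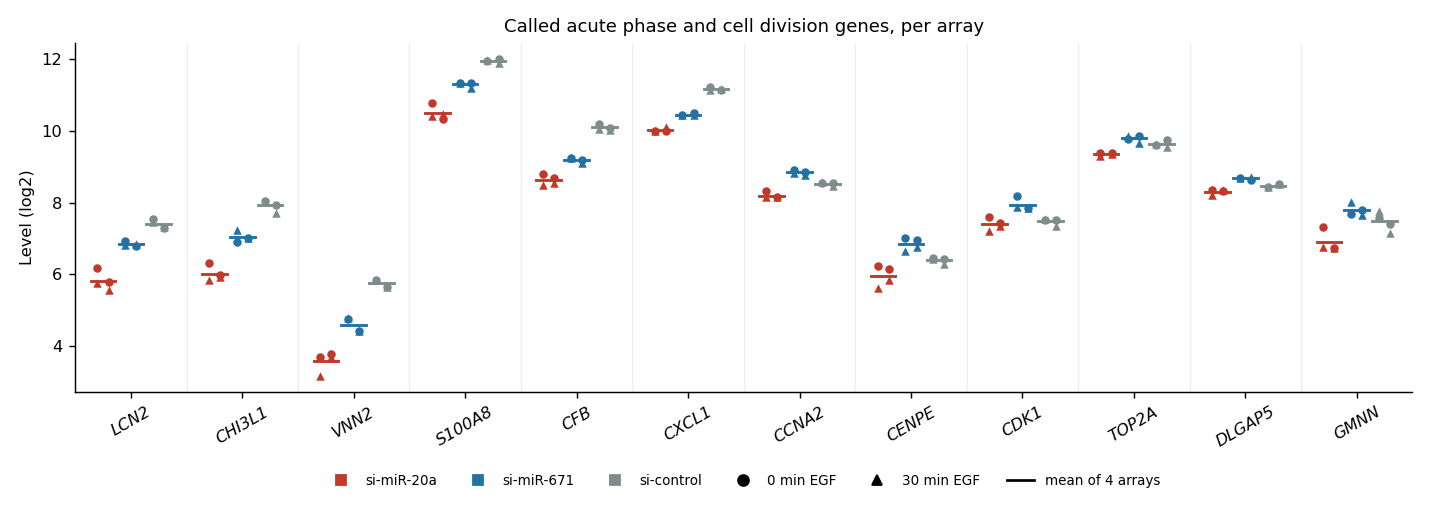
Deposited log2 level of called acute phase, chemokine, mitotic and replication genes in each array at 0 min (circles) and 30 min (triangles) of EGF, with the mean of 4 arrays as a line, for si-miR-20a, si-miR-671 and si-control. The si-miR-20a mean is the lowest for each gene, and the si-control mean is highest for LCN2, CHI3L1, VNN2, S100A8, CFB and CXCL1 but lies between the transfections for CCNA2, CENPE, CDK1, TOP2A, DLGAP5 and GMNN.

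The promoters of TOP2A and CDK1 are printed because their genes moved together and each window holds a match to the cell cycle homology region. That region, CHR, is a short element through which repressor complexes silence mitotic genes outside G2 and mitosis. It was searched as TTTGAA and, on the other strand, TTCAAA, which are in capitals. TOP2A lies at chr17:40417847-40418146 on the minus strand, with matches starting at -194 and -151. CDK1 lies at chr10:60778081-60778380 on the plus strand, with a match starting at -161.
TOP2A promoter: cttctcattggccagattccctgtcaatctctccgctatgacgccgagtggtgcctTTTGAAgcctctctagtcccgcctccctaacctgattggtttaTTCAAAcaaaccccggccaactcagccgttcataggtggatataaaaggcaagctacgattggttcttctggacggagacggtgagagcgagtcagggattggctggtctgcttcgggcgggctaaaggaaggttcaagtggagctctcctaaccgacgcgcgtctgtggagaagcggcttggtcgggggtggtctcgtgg
CDK1 promoter: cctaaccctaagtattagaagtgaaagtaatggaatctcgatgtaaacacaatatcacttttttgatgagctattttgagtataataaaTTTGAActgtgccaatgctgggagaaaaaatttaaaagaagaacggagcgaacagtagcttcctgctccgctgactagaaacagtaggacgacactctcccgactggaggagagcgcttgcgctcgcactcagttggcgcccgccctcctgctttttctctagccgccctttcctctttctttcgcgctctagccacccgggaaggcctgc
A match was present in 16 of 24 mitotic promoters (66.7%), in 1 of 35 replication promoters (2.86%) and in 1696 of 14239 promoters of all measured genes (11.9%). DLGAP5 held 3 matches, and the windows of CCNA2 and CENPE held 0 of these exact letters. Variants of the element were not searched, so 0 matches does not mean that a window lacks it. Only letters were matched, and no binding was measured.

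The largest rises by the rule for naming, beyond the targets above, were of mixed function. NKIRAS1, a small GTPase-like protein that slows the breakdown of an NF-kappaB inhibitor, was at 8.49, 8.54, 8.59 and 8.42 in si-miR-20a cells, 7.46, 7.69, 7.86 and 7.83 in si-miR-671 cells and 7.73, 7.75, 7.77 and 7.57 in si-control cells (difference 0.80 ± 0.09, limma, adjusted p = 0.038). ACER2, a Golgi ceramidase, was at 7.25, 7.24, 7.19 and 7.09 in si-miR-20a cells, 6.27, 6.37, 6.52 and 6.50 in si-miR-671 cells and 6.55, 6.51, 6.61 and 6.51 in si-control cells (difference 0.77 ± 0.08, limma, adjusted p = 0.038). In both genes the si-miR-20a arrays stood alone above the other transfections. BTG3, of a family that restrains proliferation, differed by 0.65 ± 0.08, and AMOTL2, an angiomotin-like protein that binds the growth regulator YAP, by 0.59 ± 0.08 (limma, adjusted p = 0.038 for each).

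ATP8A2, a phospholipid flippase, and H2AC21, a histone H2A gene, differed by 0.69 ± 0.11 and 0.68 ± 0.09 (limma, adjusted p = 0.042 and 0.038). Another 3 of the largest rises were dim: the olfactory receptor OR2C3 averaged 4.06 in si-miR-20a cells and 3.14 in si-miR-671 cells, the glucuronosyltransferase UGT2B10 averaged 2.77 and 2.04, and LY96, the partner of the endotoxin receptor TLR4, averaged 3.86 and 3.21. UGT2B10 and LY96 were not called over all 24 arrays (limma, adjusted p = 0.14 and 0.058).

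ACAT1 was among the largest falls outside the lists above. It encodes the mitochondrial acetyl-CoA acetyltransferase of ketone and isoleucine metabolism. ACAT1 was the 1 called gene of 28 on the sterol and fatty acid synthesis list (0.735% of all probe sets were called lower). It is not central to the pathways of that list. It was at 9.34, 9.15, 9.20 and 9.38 in si-miR-20a cells, 10.18, 10.19, 10.16 and 10.14 in si-miR-671 cells and 10.14, 10.25, 10.18 and 10.12 in si-control cells. The si-miR-671 and si-control arrays were alike and si-miR-20a stood below both, with a difference of -0.90 ± 0.07 (limma, adjusted p = 0.032).

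NFIL3, a leucine zipper repressor of the circadian and immune programmes, was at 6.86, 6.44, 6.67 and 6.39 in si-miR-20a cells, 7.54, 7.41, 7.48 and 7.48 in si-miR-671 cells and 7.77, 7.87, 7.98 and 7.91 in si-control cells (difference -0.89 ± 0.11, limma, adjusted p = 0.038). MORN2, a MORN repeat protein, differed by -1.03 ± 0.14, and SNCAIP, synphilin-1, which binds alpha-synuclein, by -0.85 ± 0.13 (limma, adjusted p = 0.038 and 0.041). The zinc finger gene ZNF92, the pseudogene ZNF826P and the small nucleolar RNA SNORD50B differed by -0.83 ± 0.09, -0.93 ± 0.14 and -0.92 ± 0.15 (limma, adjusted p = 0.038, 0.041 and 0.045).

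Further lists, here and in the next paragraphs, gave 1 call each way or less, against 0.385% of all probe sets higher and 0.735% lower. IRF9, the DNA-binding subunit of the interferon-activated complex ISGF3, was at 8.62, 8.62, 8.53 and 8.35 in si-miR-20a cells, 8.11, 7.94, 7.75 and 7.98 in si-miR-671 cells and 8.25, 8.09, 8.22 and 8.18 in si-control cells (difference 0.58 ± 0.08, limma, adjusted p = 0.038). It was the 1 call of 35 interferon genes. Over all 24 arrays limma called 5 higher and 0 lower (2.74% and 4.77% of all probe sets). The interferon-induced IFIT1 and IFI44L differed by 0.66 ± 0.13 and 0.67 ± 0.18 and did not pass in the 8 arrays (limma, adjusted p = 0.067 and 0.10). Their differences were 0.96 and 1.06 at 0 min and 0.35 and 0.28 at 30 min.

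SERPINB7, an epidermal serine protease inhibitor, was at 8.42, 8.37, 8.36 and 8.47 in si-miR-20a cells, 7.92, 7.80, 7.83 and 7.80 in si-miR-671 cells and 7.07, 7.21, 7.21 and 7.15 in si-control cells. The 3 ranges were separate with si-control lowest, and it was the 1 call of 11 clade B serpins (difference 0.56 ± 0.06, limma, adjusted p = 0.038). AOX1, aldehyde oxidase, the 1 call of 28 redox genes, showed the same order, with means of 7.24 in si-miR-20a cells, 6.72 in si-miR-671 cells and 6.13 in si-control cells (difference 0.52 ± 0.07, limma, adjusted p = 0.038). LOX, which crosslinks collagen, ran the other way, with means of 8.11 in si-miR-20a cells, 8.58 in si-miR-671 cells and 9.19 in si-control cells (difference -0.48 ± 0.07, limma, adjusted p = 0.041), and was the 1 call of 28 hypoxia genes.

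The p53 target list held CDKN1A as its 1 higher call of 24 and cyclin G1, CCNG1, as its 1 lower call. CCNG1 was at 10.20, 9.96, 9.89 and 10.08 in si-miR-20a cells, 10.60, 10.65, 10.67 and 10.55 in si-miR-671 cells and 10.87, 10.88, 10.95 and 10.83 in si-control cells (difference -0.58 ± 0.08, limma, adjusted p = 0.038). These targets of 1 factor thus differed in opposite directions. On the list of replication-dependent histone genes, which does not hold H2AC21, 1 of 45 measured genes was called: H4C3, at 0.40 ± 0.07 (limma, adjusted p = 0.047). The list's median was -0.11, and it was 0.0074 with the axis score as a covariate. None of 34 cornified envelope genes or 41 matrix and adhesion genes was called in the 8 arrays. The fit over all 24 arrays called 1 of the cornified envelope genes higher and 3 lower, and 8 of the matrix and adhesion genes higher and 3 lower, against 2.74% and 4.77% of all probe sets.

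**Figure D3:**
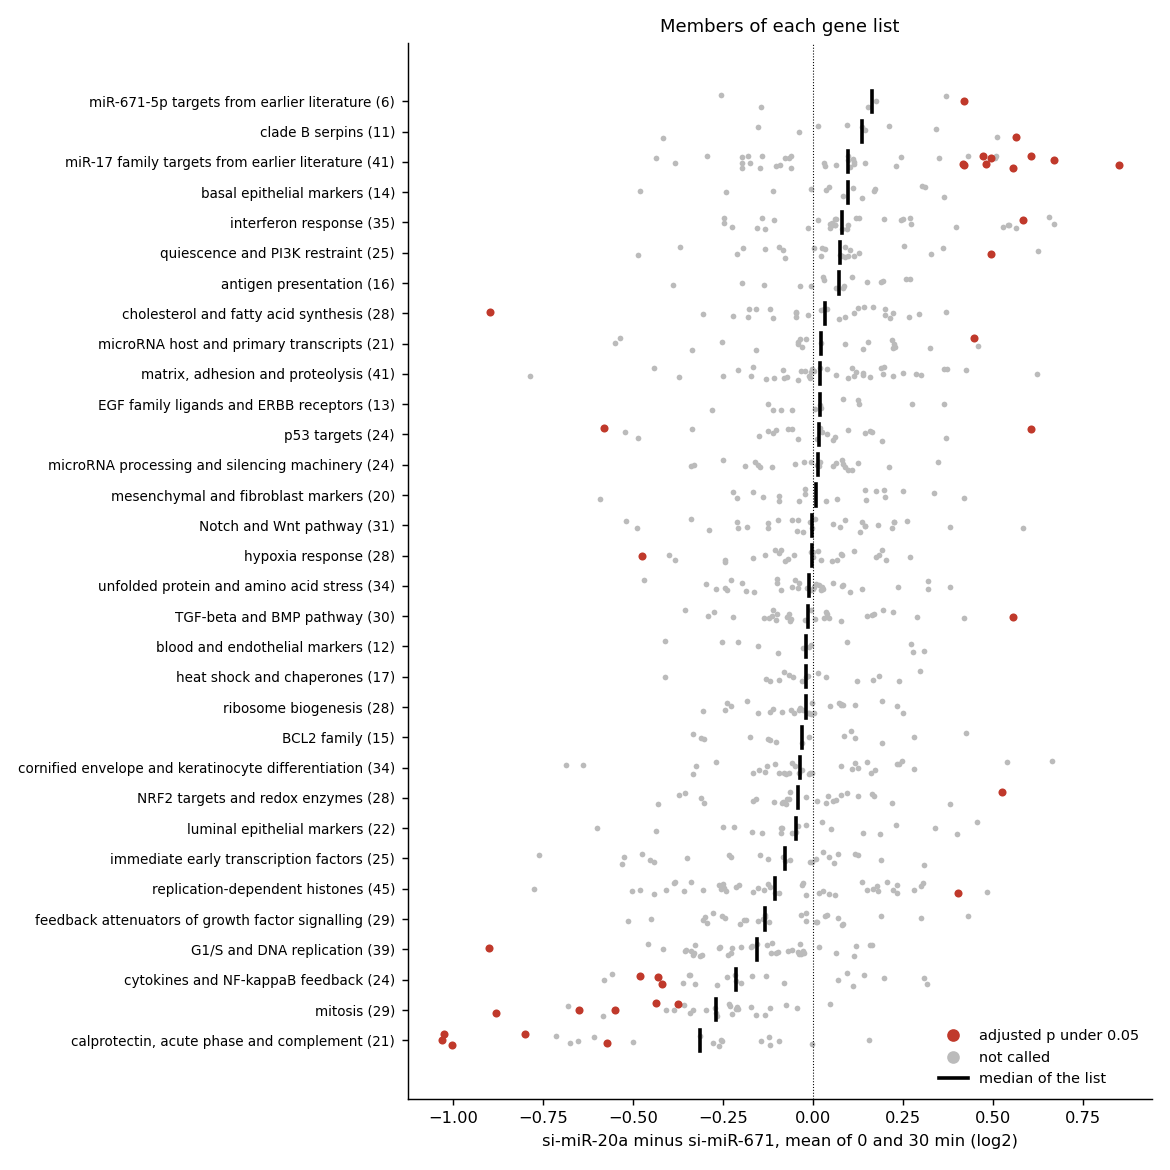
Difference of si-miR-20a minus si-miR-671 over the mean of 0 and 30 min (log2) for each measured member of each list, with called members in red and the median of the list as a bar. The lists are ordered by median, from -0.31 (acute phase list, bottom) to 0.16 (the 6 published miR-671-5p targets, top). The median of those 6 was 0.31 at 0 min and -0.02 at 30 min.

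Control cells gave another level for each gene, described here without a test. Of the 20 called genes that the rule named as higher in si-miR-20a cells, the si-control mean lay between the transfections for 13, below both for 5 and above both for 2. Of the 24 that the rule named as lower, it lay between them for 12 and above both for the other 12. Differences between si-miR-20a and si-miR-671 can come from either oligonucleotide, and these arrays alone do not separate their contributions except through such levels.

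The second comparison asked whether the EGF response over the first 30 min differed between the transfections. limma called 0 of 19460 probe sets (0.0%), with 758 at an unadjusted p under 0.05 (3.9%), and 0 over all 24 arrays. In simulated data of this size the test recovered 26% of differences of 1 and 87% of differences of 2 on the log2 scale. A difference of the response of about 2-fold could thus often be missed. Errors in the simulated data were drawn independently for each array. The immediate early transcription factors gave 0 calls of 25 in the main comparison, and the fit over all 24 arrays called 1 higher and 5 lower (2.74% and 4.77% of all probe sets). The list had median differences of 0.11 at 0 min and -0.31 at 30 min. FOS and EGR1, the classic first responders, differed by 0.26 and 0.42 at 0 min and by -0.43 and -0.28 at 30 min. ERRFI1, an EGF receptor inhibitor, averaged 8.64 in si-miR-20a cells and 9.15 in si-miR-671 cells, a difference of -0.51 ± 0.12 that did not pass (limma, adjusted p = 0.078), and 0 of 29 feedback genes were called.

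The 5 genes with the smallest p for the response were named by rule and were not called, each with an adjusted p of 1.0 by limma. EBF2, a transcription factor of adipose and neuronal lineages, was at 4.30 and 4.54 at 0 min and 3.74 and 3.99 at 30 min in si-miR-20a cells, and at 3.32 and 3.48 at 0 min and 4.63 and 4.40 at 30 min in si-miR-671 cells. The difference of its changes was -1.66 ± 0.21. S100A7A (-1.17 ± 0.16), MIR331 (-1.04 ± 0.15), IKZF2 (-0.82 ± 0.12) and OLFML1 (-1.40 ± 0.22) had the same sign, and in the 8 arrays the levels of all but IKZF2 were at most 5.36.

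The third comparison asked whether the early difference departed from that at 60 and 120 min. limma on the 16 arrays of both transfections called 7 probe sets (0.036%), all with a lower early difference, and 2988 lay at an unadjusted p under 0.05 (15.4%). The 7 probe sets were ACAT1, YIPF4, PSMD6, BCLAF3 and 3 probe sets of CFB, which may not all be separate measurements. The count was 259 (1.33%) over all 24 arrays, where si-control enters only the estimate of spread, with 58 higher (0.298%) and 201 lower (1.03%). It ran from 0 to 94 with 1 array left out, at 0 without 6 of the 16 arrays in turn and at 94 without si-miR-20a replicate 1 at 120 min.

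ACAT1 was lower in si-miR-20a cells at 0 and 30 min and level with si-miR-671 later. Its means were 9.27 in early si-miR-20a arrays, 10.17 in early si-miR-671 arrays, 9.33 in late si-miR-20a arrays and 9.31 in late si-miR-671 arrays. The si-miR-20a level thus held steady over time, while the si-miR-671 arrays stood beside si-control early and beside si-miR-20a late. The early minus late difference was -0.92 ± 0.10 (limma, adjusted p = 0.014), and it remained called without each of 7 of the 16 arrays in turn, with adjusted p from 0.020 to 0.083.

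YIPF4, a Golgi membrane protein, and PSMD6, a subunit of the proteasome's regulatory particle, showed the same arrangement. YIPF4 averaged 8.45 in early si-miR-20a arrays, 9.08 in early si-miR-671 arrays, 8.61 in late si-miR-20a arrays and 8.50 in late si-miR-671 arrays (early minus late -0.73 ± 0.10, limma, adjusted p = 0.047). PSMD6 averaged 9.70, 10.24, 9.76 and 9.72 in the same order (early minus late -0.57 ± 0.08, limma, adjusted p = 0.047). With the 16 arrays left out in turn, YIPF4 stayed called in 2 of the 16 fits and PSMD6 in 1. At 60 min the si-control replicates stood at 9.04 and 9.08 for YIPF4 and at 10.11 and 10.10 for PSMD6. At 120 min they stood at 8.65 and 9.09 for YIPF4 and at 9.73 and 10.29 for PSMD6. Replicate 1 of si-control at 120 min thus also lay near the si-miR-20a arrays in both genes.

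CFB changed sign between the periods. It averaged 8.63 in early si-miR-20a arrays and 9.20 in early si-miR-671 arrays, and 8.56 in late si-miR-20a arrays and 8.21 in late si-miR-671 arrays (early minus late -0.93 ± 0.09, limma, adjusted p = 0.011). It remained called without each of 10 of the 16 arrays. BCLAF3 averaged 6.12 and 6.42 early and 6.51 and 6.16 late in si-miR-20a and si-miR-671 cells (early minus late -0.66 ± 0.09, limma, adjusted p = 0.047), and it was not called over all 24 arrays (limma, adjusted p = 0.068) or in the early comparison.

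**Figure D4:**
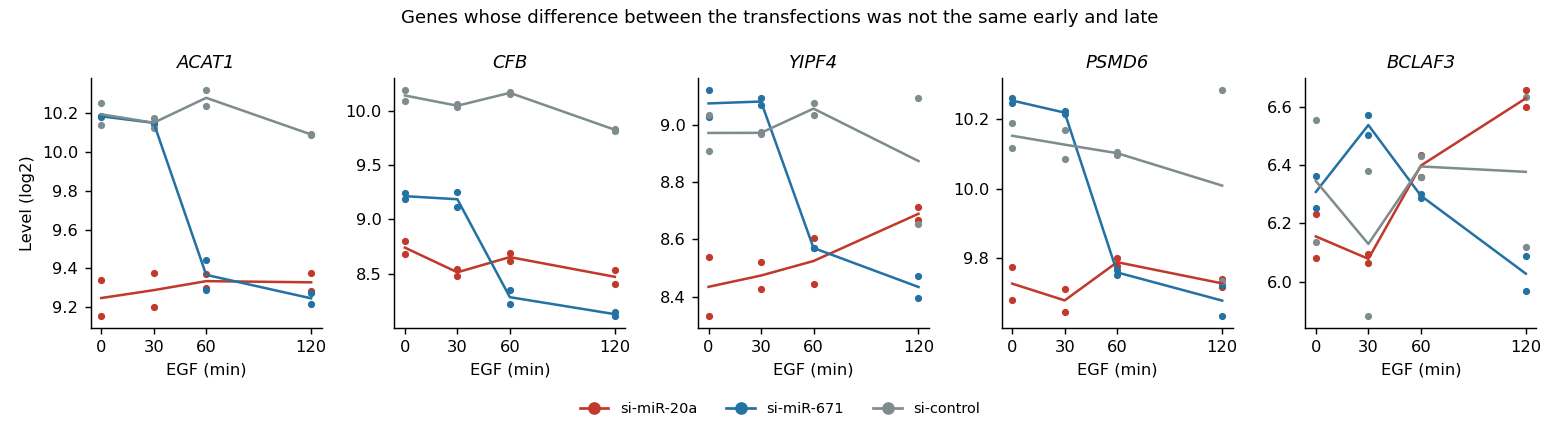
Deposited log2 level of ACAT1, CFB, YIPF4, PSMD6 and BCLAF3 against minutes of EGF, each point 1 array and each line the mean of 2 replicates, for si-miR-20a, si-miR-671 and si-control. In ACAT1, YIPF4 and PSMD6 the si-miR-671 line lies near si-control at 0 and 30 min and near si-miR-20a at 60 and 120 min. For YIPF4 and PSMD6, si-control replicate 1 at 120 min also lies near si-miR-20a.

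The called genes named by the rule are described by direction. The 20 higher ones had a median difference of 0.63 early and 0.45 late, and 14 kept their sign late. ZNFX1 differed by 0.68 late, NKIRAS1 by 0.69, TGFBR2 by 0.47 and TXNIP by 0.51. The histone genes H2AC21 and H4C3 were among the 6 with the other sign late, at -0.39 and -0.38, and neither passed the test of the change on 16 arrays (limma, adjusted p = 0.14 and 0.087), while both passed it over all 24 (limma, adjusted p = 0.041 and 0.011). The 24 lower ones had a median difference of -0.81 early and -0.05 late, and 14 kept their sign. For those 24, the late minus early median was 0.03 in si-miR-20a cells and -0.73 in si-miR-671 cells.

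LCN2, for example, averaged 6.01 in late si-miR-20a arrays and 6.08 in late si-miR-671 arrays, and S100A8 averaged 10.41 and 10.29. The late differences of the 5 called mitotic genes were -0.19 for CENPE, -0.29 for CCNA2, -0.18 for CDK1, -0.26 for TOP2A and -0.28 for DLGAP5. Most named genes were picked for their early difference. YIPF4 and PSMD6, among the 24 lower ones, were named only by the test of the change, and ACAT1 and CFB by both. The smaller late difference of the lower genes is thus partly built in by the choice of genes. The late values are a description, and the test of the change itself called the 7 probe sets above. Early and late arrays differ in time of EGF and in any handling that went with it, and these cannot be told apart. No source used here says whether the early and late si-miR-671 arrays came from the same transfection, and what that means for values taken against si-miR-671 was not tested.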

How the data were processed

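The authors deposited log2 values per probe set, made with Affymetrix Expression Console per the submitters' processing notes; no source used here gives its version, summarisation or normalization. Array maxima between 13.0 and 13.2 set the base of the logarithm. Total RNA was hybridised to 24 arrays. The values were used as deposited, with no further normalization, and the number of arrays limits the precision. Of 33297 probe sets, 19460 with exactly 1 gene symbol were tested (18417 genes), 1754 had several symbols and 12083 were unlisted. Promoters and microRNAs came from RefSeq (GRCh38.p14).

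Samples were grouped by their labels. limma 3.58.1 (R 4.3.3) ran lmFit and eBayes: 8 arrays with time as a block for the main comparison (5 residual and 2.29 prior degrees of freedom), 1 mean per group for the 30 min response and, over 16 arrays, for early minus late. Benjamini-Hochberg adjustment covered all 19460, with a call at an adjusted p below 0.05. Errors are standard errors of the fit. On simulated data of the main comparison, 88% of differences of 1 and 96% of differences of 2 on the log2 scale were called. There were 12 false calls (6.12% of calls). Errors were drawn independently for each array, without the axis shared between arrays, so these shares may not hold for the real arrays. Tables and figures used Python 3.11.15, pandas 2.3.3, numpy 2.4.6 and matplotlib 3.10.9.

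Each gene took its probe set with the highest mean. The rule named the 12 largest rises and falls among called genes with arrays apart, up to 4 called members per list with the smallest p, 3 targets of the miR-17 family each way, and both host genes. For the other comparisons it named up to 10 called genes, or the 5 with the smallest p where under 5 were called. The members and lists were chosen with earlier results of these data known. No source used here says whether replicate numbers pair the samples, and the main fits did not pair them. Of 6 pairs of early groups, 3 had correlated replicate differences above 0.1 (range -0.23 to 0.34). Those 3 were the pairs without si-miR-20a at 30 min, so pairing was not settled. One called member of the miR-17 family target list is counted but not reported here.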

Additional observations from a re-analysis of the deposited data

Results flagged for a closer look

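Of 104 checks of a group of 4 early arrays for 1 array far from the other 3, 8 found one, and chance gives about 1 in 20. The value given is that array's gap to its nearest neighbour divided by the whole range. In si-miR-20a cells the value was 0.956 for GMNN and 0.932 for CCNA2, where replicate 1 at 0 min was high (7.32 and 8.31). It was 0.865 for VNN2 and 0.900 for DLGAP5, where replicate 1 at 30 min was low (3.17 and 8.20). It was 0.842 for CXCL1, where replicate 2 at 30 min was high (10.11). In si-miR-671 cells it was 0.878 for S100A8 (replicate 2 at 30 min low, 11.20), 0.897 for DLGAP5 (replicate 2 at 0 min low, 8.64) and 0.932 for H4C3 (replicate 1 at 30 min low, 8.51).

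In 5 genes the difference between the transfections changed from the early to the late arrays by the test of that change. Early minus late was -0.92 for ACAT1, -0.93 for CFB, -0.73 for YIPF4, -0.57 for PSMD6 and -0.66 for BCLAF3.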

How the results depend on the processing

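The counts of calls depended on the settings. Over 1002 combinations of a named result and another setting, 0 changed sign, 379 stayed on the same side of the threshold, 619 lost it and 4 gained it. The genes were picked on these arrays, mostly with the arrays apart, which fixes the sign when arrays are left out, so the kept signs are no evidence of stability. The 218 early calls became 1461 over all 24 arrays, 1376 with an intensity trend, 1869 with array weights and 1736 with dim probe sets left out. They became 1 with all 33297 probe sets and 0 with 1 mean per group, at 0 min alone, at 30 min alone or with the array axis as a covariate, which was chosen after seeing the data. With the replicate number as a block there were 0 early calls. Leaving out 1 array gave 0 to 1156. The 7 calls for early minus late became 259 over all 24 arrays, 140 with an intensity trend, 288 with dim probe sets left out, 4 after quantile normalization, 3 with all probe sets and 4 with the replicate block. Leaving out 1 array gave 0 to 94. The cause of these changes in count was not tested. The 30 min response gave 0 calls under every setting run. Quantile normalization left the early count at 209, and array weights left the early minus late count at 7. Only 4 arrays stood against 4, and the levels of dim genes such as VNN2, UGT2B10 and OR2C3 were not set against a measured background.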

Other observations

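Some genes outside the called lists were apart in every early array without passing the test. SPRR1B, a precursor of the cornified envelope, averaged 8.67 in si-miR-20a cells, 8.13 in si-miR-671 cells and 7.65 in si-control cells, a difference of 0.54 ± 0.12 (limma, adjusted p = 0.072, and 0.0082 over all 24 arrays). DROSHA, the nuclear enzyme that cuts primary microRNAs, averaged 7.84 in si-miR-20a cells, 8.18 in si-miR-671 cells and 8.15 in si-control cells, a difference of -0.34 ± 0.09 (limma, adjusted p = 0.098, and 0.028 over all 24 arrays). PI3, the elastase inhibitor elafin, averaged 7.89 in si-miR-20a cells, 8.39 in si-miR-671 cells and 8.90 in si-control cells, a difference of -0.50 ± 0.09 (limma, adjusted p = 0.052). These were chosen after their values were seen.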
